A study of Homo sapiens with 4 samples.

Results

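The germline-restricted genes described here are DAZL, DDX4, PIWIL1, PIWIL2, MAEL, SYCP3, TDRD9, HORMAD1, TEX14 and H1-8, 10 genes whose transcripts belong to germ cells. DNA methylation in their spans, extended by 5 kb on each side, was compared between clones of SKOV3, a human ovarian cancer line of mesenchymal-like (M) phenotype that is long established in culture. The data were 4 libraries of reduced representation bisulfite sequencing (RRBS), 1 per clone: shC-S carried a control shRNA, sh-LY75-S a lentiviral shRNA against LY75, LY75-KO-S a CRISPR inactivation of LY75, and LY75-R-S the LY75 knockdown together with a shRNA-resistant LY75 cDNA. The clones shC-S and LY75-R-S had the M phenotype and sh-LY75-S and LY75-KO-S the epithelial (E) phenotype. LY75, also named DEC205, is an endocytic receptor of the mannose receptor family. All clones derive from a single tumour cell line, each was selected in culture, and none was replicated, so that a change which came with LY75 cannot be told apart from one which came with the choice of a clone.

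Each of the 3 deposited tables lists tiles of 1000 bp on hg19 that differed in methylation between M and E clones: shC-S with sh-LY75-S (the knockdown comparison), LY75-R-S with LY75-KO-S (the knockout comparison), and the remaining table, taken here to be the study's mix of all 4 libraries by phenotype. The name of that table does not spell out its libraries, and it was matched to the mix by elimination. The knockdown and the knockout comparison share no library and are called the single comparisons. They do share a lineage, since the cDNA of LY75-R-S was expressed in sh-LY75-S cells. That lineage stands on the E side of the knockdown comparison and on the M side of the knockout comparison. A tile in both may thus have differed in opposite directions, and direction was not used. The tiles were chosen by the thresholds that the depositors set on the difference in these comparisons (at least 25 percentage points and a q-value under 0.01, as the tables are named), while the genes were grouped by their function, with earlier results of these data known. What follows is therefore the place of the listed tiles in the genes. The size, the direction and the p-values of the differences are the depositors' own comparisons and were not used, and neither read numbers nor methylation per library stand in the tables, so that the labels of the clones could not be checked. Listed tiles numbered 51243, 28282 and 20986 in the order given above, or 72455 distinct tiles, and 20 of them fell in the 10 genes. A tile that is not listed may have had equal methylation in the clones or too few reads, and these cannot be told apart.

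Germ cells use genes that other cells keep silent. Many of these genes start in a CpG-dense stretch that is methylated in somatic tissues and becomes unmethylated in primordial germ cells, and tumours with hypomethylated DNA can express them. The products act in a few linked processes: RNA-binding proteins and helicases of germ cell identity (DAZL, DDX4), the piRNA pathway that silences transposons (PIWIL1, PIWIL2, MAEL, TDRD9), the axis of meiotic chromosomes (SYCP3, HORMAD1), the bridges between dividing germ cells (TEX14) and the chromatin of the oocyte (H1-8, a linker histone also named H1FOO).

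Most of these genes start in CpG-dense sequence, and H1-8 is the exception. Such sequence does not set them apart. The tile with the canonical start held a median of 50.0 CpGs in the 10 genes and 59.0 over all protein-coding genes. The 200 bases from 150 upstream of the canonical start are given below for DAZL, MAEL and SYCP3, whose start tiles were listed in none of the tables, and for H1-8, whose start tile was listed. They were read from the reference genome GRCh37, the build also named hg19, 5′ to 3′ on the strand of the gene, with CpGs in capitals.
DAZL, chr3:16646881-16647080, minus strand: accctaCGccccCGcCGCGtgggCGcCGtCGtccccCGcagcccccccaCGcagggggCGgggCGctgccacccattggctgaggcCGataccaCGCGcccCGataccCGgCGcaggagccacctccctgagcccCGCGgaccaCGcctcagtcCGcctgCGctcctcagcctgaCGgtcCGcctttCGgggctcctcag
MAEL, chr1:166958367-166958566, plus strand: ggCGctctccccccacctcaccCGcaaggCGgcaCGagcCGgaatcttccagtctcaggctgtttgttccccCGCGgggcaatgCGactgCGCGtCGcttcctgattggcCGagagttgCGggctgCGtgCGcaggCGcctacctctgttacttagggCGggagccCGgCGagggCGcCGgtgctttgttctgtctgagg
SYCP3, chr12:102133191-102133390, minus strand: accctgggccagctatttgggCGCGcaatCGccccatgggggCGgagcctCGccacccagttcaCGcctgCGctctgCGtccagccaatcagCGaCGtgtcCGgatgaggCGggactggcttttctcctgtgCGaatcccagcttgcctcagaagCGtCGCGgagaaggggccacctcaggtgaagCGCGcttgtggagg
H1-8, chr3:129261868-129262067, plus strand: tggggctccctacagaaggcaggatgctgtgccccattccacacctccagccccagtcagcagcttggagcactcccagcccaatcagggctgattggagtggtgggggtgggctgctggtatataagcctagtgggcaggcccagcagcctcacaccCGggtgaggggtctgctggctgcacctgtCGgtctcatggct
These windows hold 25 CpGs in DAZL, 21 in MAEL, 18 in SYCP3 and 2 in H1-8.

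RRBS reads genomic DNA from the ends of short fragments of an MspI digest, which cuts at CCGG, so a read covers only the bases near a fragment end. A tile was called reachable here when reads of 50 bp from the ends of MspI fragments of 40 to 220 bp cover at least 1 CpG in it. The fragments below lie in listed tiles at or near a start (PIWIL1, TDRD9, H1-8) and in a CpG-dense tile past a gene end (DDX4), again with all CpGs in capitals.
PIWIL1, chr12:130821950-130822005, plus strand: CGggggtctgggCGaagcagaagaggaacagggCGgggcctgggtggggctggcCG
TDRD9, chr14:104395043-104395101, plus strand: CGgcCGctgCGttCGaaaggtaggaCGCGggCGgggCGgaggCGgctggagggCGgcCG
H1-8, chr3:129262626-129262799, plus strand: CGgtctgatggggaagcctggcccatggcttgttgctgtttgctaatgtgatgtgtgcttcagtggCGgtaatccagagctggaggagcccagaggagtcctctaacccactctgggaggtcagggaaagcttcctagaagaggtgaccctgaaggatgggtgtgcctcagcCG
DDX4, chr5:55117655-55117775, plus strand: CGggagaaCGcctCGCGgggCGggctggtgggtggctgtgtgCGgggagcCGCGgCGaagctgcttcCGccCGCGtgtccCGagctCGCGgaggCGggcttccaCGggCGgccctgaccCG
They hold 4 CpGs in 56 bases (PIWIL1), 11 in 59 bases (TDRD9), 3 in 174 bases (H1-8) and 19 in 121 bases (DDX4). Of these CpGs, 2 in the H1-8 fragment and 15 in the DDX4 fragment lie within 50 bases of an end, and those in the PIWIL1 and TDRD9 fragments all do.

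Listed tiles were present in 8 of the 10 genes, and none was present in MAEL or SYCP3. In the knockdown comparison, 11 tiles fell in 8 genes, and 60.5% of the 20098 protein-coding genes had a listed tile under the same rule. In the knockout comparison, 9 tiles fell in 5 of the 10 genes, with 46.9% of protein-coding genes. In the mix, 6 tiles fell in 5 of the 10 genes, with 38.4%. Since the listing is what the rule uses, these counts describe the genes and carry no test. The genes differ in length and in how many of their tiles RRBS can reach. TEX14, with a span of 135.4 kb, had 5 listed tiles and 43 reachable ones, TDRD9 (124.2 kb) had 3 and 32, and PIWIL2 (82.3 kb) had 3 and 19. Listed and reachable tiles numbered 1 and 14 for PIWIL1, 1 and 11 for DDX4, 3 and 7 for H1-8, 1 and 6 for DAZL, and 3 and 4 for HORMAD1. In HORMAD1 the listed tiles of the knockout comparison were not among the reachable ones. MAEL had 3 reachable tiles in 58 tiles and SYCP3 had 2 in 22, and listing was not limited to such tiles, since 18 of the 20 listed tiles were reachable.

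**Figure D1:**
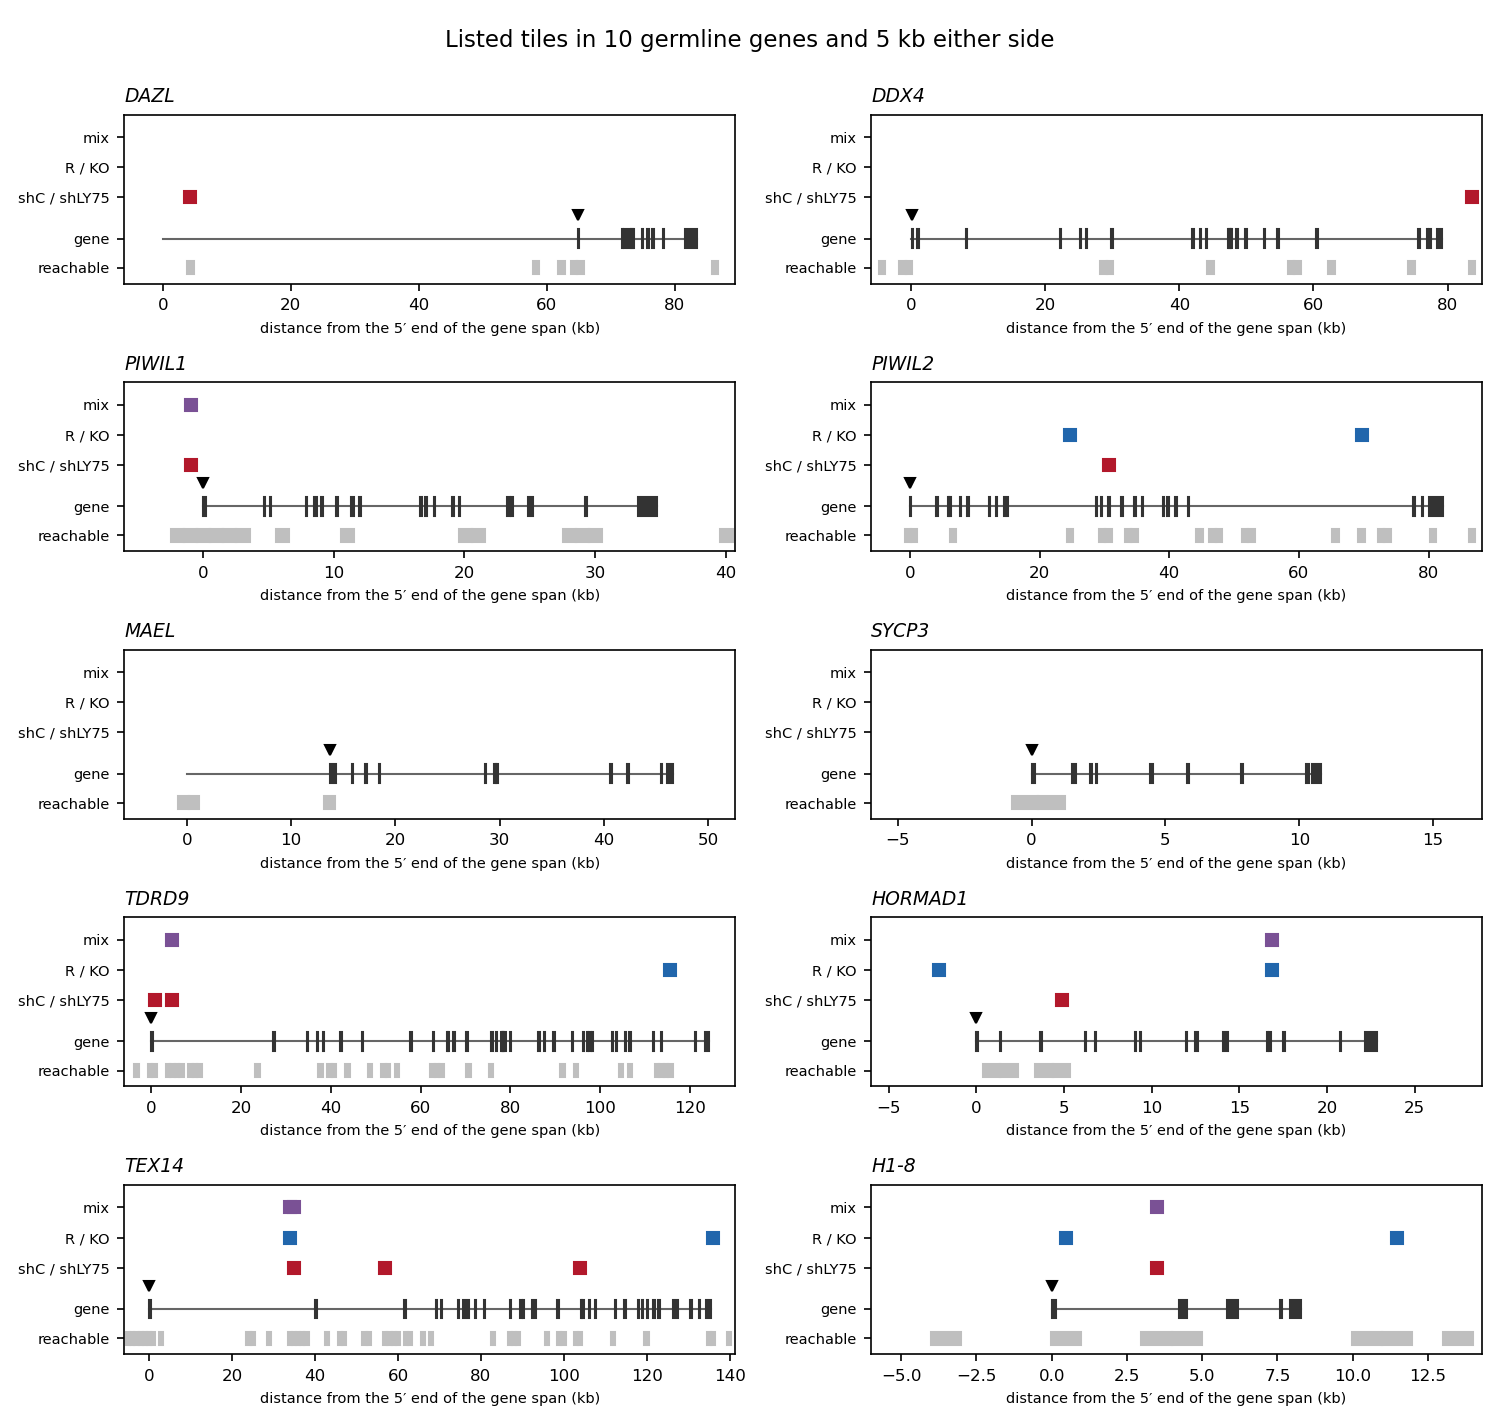
Each panel is 1 gene with 5 kb either side, and the x axis is the distance from the 5′ end of the gene span in kb. Squares mark the centres of listed tiles in the knockdown comparison (shC / shLY75, red), the knockout comparison (R / KO, blue) and the mix (purple), boxes on the line are exons of the canonical transcript, the triangle is its start, and grey blocks are reachable tiles; MAEL and SYCP3 have no square, and the TEX14 squares near 34 kb are neighbouring tiles.

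No tile was listed in both single comparisons: each of the 20 tiles was in 1 of them, 14 in that table alone and 6 also in the mix. Over the whole series, 8345 of the 71180 tiles of the single comparisons were in both tables, with their directions not compared. So matched, the mix contains the libraries of the single comparisons, and each of its 6 tiles in these genes was also in one of them, 4 in the knockdown comparison and 2 in the knockout comparison. At the level of genes, PIWIL2, TDRD9, HORMAD1, TEX14 and H1-8 had tiles in both single comparisons, always different tiles. Of all protein-coding genes 37.2% had tiles in both, and 18.8% had an identical tile in both.

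By position, 9 of the 20 tiles lay in an intron of the canonical transcript, 5 overlapped one of its exons, 1 lay in an intron of a longer transcript outside the canonical one, 2 lay upstream of a gene and 3 downstream. These classes describe the whole tile, while reads cover only fragment ends, so an overlapped exon need not have been read. In the TEX14 tile over exons 16 and 17, the MspI fragment from 56665815 to 56665942 lies outside both exons. The tile was within 2 kb of an annotated start in 6 cases and over 10 kb from every start in 7. Within 2 kb of a start, tiles were listed in 3 of the 10 genes in the knockdown comparison (PIWIL1, TDRD9 and H1-8), where 37.6% of protein-coding genes had one. The knockout comparison had such tiles in 2 genes (HORMAD1 and H1-8; 21.5% of protein-coding genes), and the mix in 3 (PIWIL1, HORMAD1 and H1-8; 19.9%). With the start of the gene span or of the canonical transcript alone, the count in the mix was 1, since the tiles of HORMAD1 and H1-8 lie at or near starts of shorter transcripts.

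Tiles that hold the canonical start of a gene were described apart. The tile with the canonical start held between 21 and 92 CpGs, with a median of 50.0 over the 10 genes and 59.0 over 19819 protein-coding genes. The ratio of observed to expected CpGs was 0.6 or more in 9 of the genes, and 0.23 in H1-8. Of these 9 start tiles, 8 were reachable and that of HORMAD1, with 39 CpGs and 2 MspI sites, was not. The ratio of 0.6 was set after the positions had been seen, and it leaves out the only start tile that was listed. The count that follows depends on that choice and is a description. Among the 8 reachable CpG-dense start tiles, 0 were listed in any table, which allows a share of up to 32.4% (upper bound of the 95% Wilson interval, counting error only). Of 11242 such tiles over all protein-coding genes, 11% were listed in the knockdown comparison, 2.11% in the knockout comparison and 4.99% in the mix, all inside that interval. The 1 start tile that was listed, that of H1-8 in the knockout comparison, was also the one with the fewest CpGs.

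**Figure D2:**
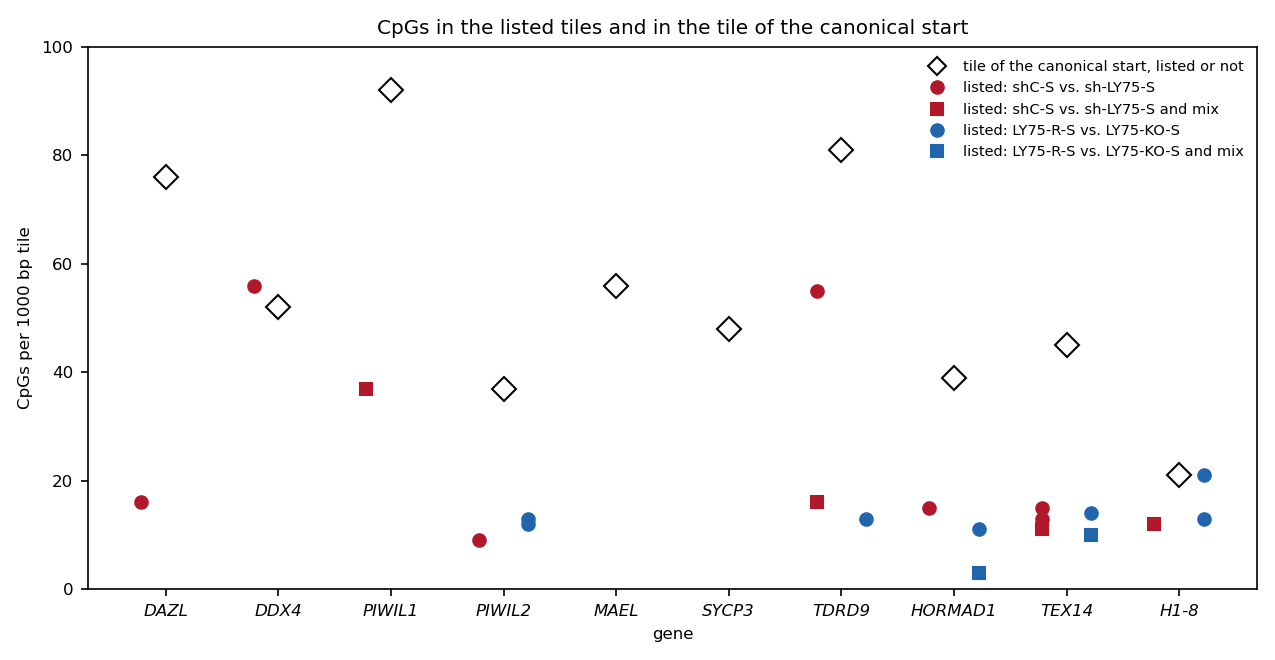
CpGs per tile of 1000 bp (y axis) for each gene (x axis). Open diamonds are the tile with the canonical start, and filled symbols are the listed tiles, red for the knockdown comparison and blue for the knockout comparison, as squares where the tile was also in the mix; 17 of the 20 listed tiles hold 3 to 21 CpGs, below the diamonds of 9 genes, and the listed tiles with more lie in DDX4, PIWIL1 and TDRD9.

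For DAZL, which binds mRNAs and regulates their translation in germ cells, 1 tile was listed, and in the knockdown comparison alone. The gene occupies bases 16628299 to 16711813 of chromosome 3 in GRCh37, on the minus strand (ENSG00000092345). The tile spans 16707001 to 16708000, in an intron of a transcript that starts 64.9 kb upstream of the canonical one. It lies 3813 bp inside the start of the gene span and 60071 bp upstream of the canonical start at 16646930, and it overlaps the lncRNA ENSG00000229271 on the same strand. The tile holds 16 CpGs, against 76 in the tile of the canonical start, which was not listed.

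DDX4, the germ cell RNA helicase also known as VASA, lies on chromosome 5 from 55033845 to 55112985 on the plus strand (ENSG00000152670). Its listed tile, from 55117001 to 55118000 and in the knockdown comparison alone, begins 4016 bp past the end of the gene, near the edge of the 5 kb extension. The tile holds 56 CpGs and 7 MspI sites and is as CpG-dense as the start of the gene, whose tile has 52 CpGs. It overlaps no annotated gene, and the nearest start of another protein-coding gene, IL31RA, is 29185 bp away. Within the 79.1 kb of DDX4 itself no tile was listed.

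In PIWIL1, an Argonaute-like protein that carries piRNAs, the listed tile lay upstream of the start. The gene lies on chromosome 12 from 130822432 to 130857182 on the plus strand (ENSG00000125207). The tile from 130821001 to 130822000 ends 432 bp before the start, holds 37 CpGs and was listed in the knockdown comparison and in the mix. The next tile, which holds the start, 92 CpGs and 16 MspI sites, was reachable and was in none of the tables. The fragment printed for PIWIL1 crosses the border of these tiles by 5 bases.

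PIWIL2, the other Piwi protein of the list, lies on chromosome 8 from 22132829 to 22215081 on the plus strand (ENSG00000197181) and had 3 listed tiles, all inside the gene and none in the mix. The tile from 22163001 to 22164000, over exon 13 and with 9 CpGs, was listed in the knockdown comparison. In the knockout comparison, the listed tiles ran from 22157001 to 22158000 in intron 10 (13 CpGs) and from 22202001 to 22203000 in intron 20 (12 CpGs). Measured from the start, the 3 tiles begin at 24172, 30172 and 69172 bp. The start tile, with 37 CpGs, was not listed.

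TDRD9, a helicase with a Tudor domain that acts with PIWI proteins, had a listed tile next to its start. The gene lies on chromosome 14 from 104394793 to 104519004 on the plus strand (ENSG00000156414). In the knockdown comparison, the tile from 104395001 to 104396000 was listed, which begins 208 bp downstream of the canonical start, overlaps exon 1, holds the start of another transcript and has 55 CpGs. The same table and the mix listed the tile from 104399001 to 104400000 in intron 1, with 16 CpGs. The tile of the canonical start, with 81 CpGs and 13 MspI sites, was not listed. A start of the neighbouring gene ATP5MJ lies 395 bp from the first of these tiles, so its place refers to both genes. The knockout comparison listed the tile from 104510001 to 104511000, in intron 34 and 115208 bp from the start, with 13 CpGs.

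HORMAD1, which assembles on unsynapsed meiotic chromosomes, lies on chromosome 1 from 150670536 to 150693371 on the minus strand (ENSG00000143452). In the knockout comparison, the tile from 150695001 to 150696000, 1630 bp upstream of the start and with 11 CpGs, was listed. The same table and the mix listed the tile from 150676001 to 150677000, over exons 11 and 12 and the start of a shorter transcript, which holds 3 CpGs, the fewest of all 20 tiles. Neither tile was reachable by the fragment lengths used here, which was true of no other listed tile in these genes. The fragments behind their reads are not known. In the knockdown comparison, the tile from 150688001 to 150689000 in intron 3 was listed, with 15 CpGs.

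TEX14, which keeps the bridges between germ cells open, lies on chromosome 17 from 56634039 to 56769416 on the minus strand (ENSG00000121101) and had the most listed tiles, none within 2 kb of a start. In the knockdown comparison, they lay over exons 16 and 17 (56665001 to 56666000, 15 CpGs), in intron 2 (56712001 to 56713000, 13 CpGs) and in intron 1 (56734001 to 56735000, 11 CpGs). In the knockout comparison, the tile beside the last of these was listed (56735001 to 56736000, 10 CpGs), and the mix listed both neighbours. In no other of the 10 genes did the single comparisons list tiles beside each other. An MspI fragment from 56734967 to 56735082 crosses the border of these neighbours and has an end in each. That end is the only MspI site in the neighbour listed in the knockdown comparison. Whether both listings rest on this fragment was not tested. The other tile of the knockout comparison, from 56633001 to 56634000, lies wholly downstream of the gene, 39 bp from its end, and overlaps the lncRNA SEPTIN4-AS1. The start tile, which also holds the starts of IGBP1C and RAD51C, has 45 CpGs and was not listed.

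H1-8, the linker histone of the oocyte, is the shortest of the genes, with 8.3 kb on chromosome 3 from 129262018 to 129270310 on the plus strand (ENSG00000178804). The knockout comparison listed the tile over its start and exon 1, from 129262001 to 129263000, with 21 CpGs. That table also listed the tile from 129273001 to 129274000, 2691 bp past the gene end and 1877 bp from the nearest start of PLXND1 on the other strand. In the knockdown comparison and in the mix, the tile from 129265001 to 129266000 in intron 1 was listed, with 12 CpGs and 1229 bp upstream of the start of a shorter transcript. The tile over the start of H1-8 and a tile farther into intron 1 were thus each listed in 1 of the single comparisons. MspI fragments in the start tile run from 129262626 to 129262799 and from 129262798 to 129262954. These fragments lie past exon 1, in intron 1, and which fragments were read is not known.

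MAEL, which works with the piRNA machinery in germ cells, lies on chromosome 1 from 166944819 to 166991451 on the plus strand (ENSG00000143194), with its canonical start 13.7 kb inside the span. SYCP3, a component of the lateral element of the synaptonemal complex, lies on chromosome 12 from 102122426 to 102133250 on the minus strand (ENSG00000139351). Their start tiles have 56 and 48 CpGs and 5 and 4 MspI sites, and were reachable. Neither gene had a listed tile in any table, within the gene or in the 5 kb either side.

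The tiles on both sides of the 5 kb limit were as follows. The farthest tile inside it was that of DDX4, 4016 bp past the gene end, and the nearest outside was a tile on chromosome 3 from 129276001 to 129277000, 5691 bp past H1-8, in the knockdown comparison and the mix. Between 5 and 10 kb, 7 tiles were listed beside PIWIL1, MAEL, TDRD9, HORMAD1 and H1-8. One of them, 8536 bp downstream of HORMAD1 on chromosome 1 from 150661001 to 150662000, was in both single comparisons.

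The share of reachable tiles that were listed can be set beside that of the genome. Of 141 reachable tiles in the 10 genes, 11 were listed in the knockdown comparison (7.8%, 95% Wilson interval 4.41 to 13.4%), and over the autosomes and X 12.4% of 383123 reachable tiles were. In the knockout comparison, 7 were listed (4.96%, 2.43 to 9.89%), with 6.65% in the genome. In the mix, 5 were listed (3.55%, 1.52 to 8.03%), with 5.15%. The genome shares lie inside all of these intervals. The intervals allow for counting error only, and tiles next to each other may vary together. Among the 41 reachable tiles within 2 kb of a start, 3, 1 and 2 were listed (7.32%, 2.44% and 4.88%), and for all protein-coding genes the shares were 13.1%, 5.61% and 5.56%. Among the 100 elsewhere in the extended genes, 8, 6 and 3 were listed (8%, 6% and 3%), with 10.8%, 6.42% and 4.44% over all protein-coding genes.

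**Figure D3:**
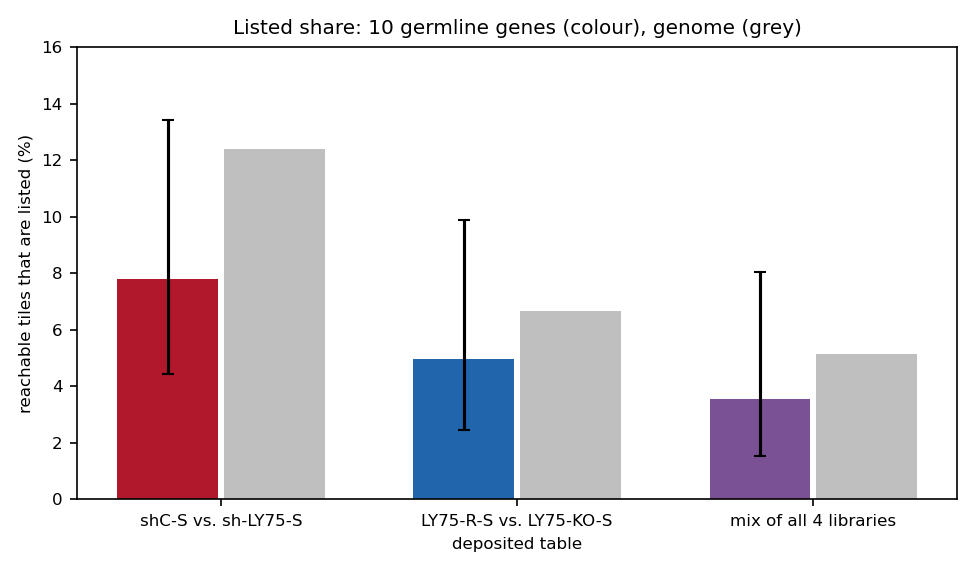
Percentage of reachable tiles that were listed (y axis) in each table (x axis), in colour for the 141 reachable tiles of the 10 genes and in grey for 383123 tiles of the autosomes and X. Bars of error are 95% Wilson intervals for counting error alone; each grey value (12.4%, 6.65% and 5.15%) lies within the interval beside it.

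The listed tiles held fewer CpGs than most start tiles. Their median was 13 CpGs, compared with 18.0 in the 123 reachable tiles of the genes that were not listed, and with 19, 17 and 19 over all listed tiles of the tables in the usual order. Tiles with over 30 CpGs made up 3 of the 20, those of DDX4, PIWIL1 and TDRD9, and all of these were listed in the knockdown comparison. The letters GTAATCCCA, a stretch of the consensus of Alu repeats, were searched on both strands. They occurred in 9 of the 20 tiles (45%), among them the tile of DAZL, the tiles of PIWIL2 in introns 10 and 20, and that of H1-8 in intron 1. Of all reachable tiles 42.9% hold these letters, of the reachable tiles of the genes not listed 57.7%, and of all listed tiles 25.7% in the knockdown comparison, 30.7% in the knockout comparison and 24.2% in the mix. Alu copies with a changed letter or with these letters across a tile border were not counted, so more of the tiles may hold such repeats. Whether reads of 50 bp in such repeats were placed at the right copy was not tested.

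Other germline genes were counted in the same way within 2 kb of a start, from lists by role. The lists were not limited to genes that act in germ cells alone, OTX2 and SOX17 being examples. Of 114 genes found in the annotation, 50 (43.9%) had a listed tile in the knockdown comparison, 23 (20.2%) in the knockout comparison and 16 (14%) in the mix, with 37.6%, 21.5% and 19.9% of protein-coding genes. In the knockdown comparison, these were 14 of 39 meiosis genes, 9 of 20 genes of the piRNA pathway, 16 of 29 regulators of germ cells and 11 of 26 oocyte genes. In the knockout comparison they were 7, 6, 5 and 5, and in the mix 3, 4, 5 and 4, in the same order. An identical tile near a start in both single comparisons, whatever its direction in each, was listed in 9 of the 114 genes and in 7.35% of protein-coding genes. The 9 were MSH4, RNF212, SYCE3, DDX25, PLD6, SOHLH1, DPPA5, OTX2 and ZP3. In MSH4, a meiotic mismatch repair homologue that promotes crossing over, the tile from 76262001 to 76263000 on chromosome 1 covers the canonical start, holds 37 CpGs and was in all tables. In PLD6, a mitochondrial protein that takes part in the making of piRNAs, the tile from 17110001 to 17111000 on chromosome 17 lies 354 bp upstream of the start and holds 39 CpGs. In SYCE3, a central element protein of the synaptonemal complex, the tile from 51002001 to 51003000 on chromosome 22 lies 653 bp upstream and holds 27 CpGs. Of the 9, DDX25 and DPPA5 were also in all tables with the same tile. The shared tiles of RNF212, DDX25, ZP3 and OTX2 lie 54352, 18598, 10734 and 2197 bp from the canonical start, near starts of other transcripts.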

How the data were processed

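RRBS was performed on MspI-digested DNA of 4 SKOV3 clones, 1 library each, with single reads of 50 bp. Per the labels, the authors trimmed the reads, aligned them to hg19 with Bismark 0.16.1 and compared them with methylKit, in tiles of 1000 bp as the tables are named. The labels differ on the trimmer: the processing notes name Trim Galore 0.4.1 and the extraction protocol Trimmomatic. The methods state an adjusted p under 0.05, while the deposited tables are named for a q-value under 0.01. The deposited tables list tiles past the thresholds. The tables also hold a methylation difference, a p-value and a q-value per tile, which are the authors' own comparisons and were not used, so that no direction or size is given. Depth, coverage minimum and how the mix was combined are not given in the sources used here.

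Tile positions were joined to GENCODE release 44 on GRCh37 (Ensembl canonical transcripts, and all annotated starts), whose chromosome lengths hold all listed tiles. CpGs, MspI fragments and reachable tiles were computed from the GRCh37 sequence, for the autosomes and X, with functions checked on simulated sequences (Python 3.11.15, numpy 2.4.6, scipy 1.17.1, matplotlib 3.10.9). Shares carry 95% Wilson intervals. No test was made. The 10 genes and the gene lists were chosen with earlier results of these data known. Named are the 10 genes and, of the other germline genes, at most 10 with the identical tile near a start in both single comparisons. The CpG ratio of 0.6 and the searched letters were set after the positions had been seen. The fragment sequences of some listed tiles are not reported here.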

Additional observations from a re-analysis of the deposited data

How the results depend on the processing

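Of 48 alternative counts and shares, 37 stayed within 1.5 times the main count or within its interval, and 11 did not. The number of genes with a listed tile near a start rose from 3 to 5 in the knockdown comparison with 5 kb either side, and fell in the mix from 3 to 1 with the start of the gene span alone, and to 1 with that of the canonical transcript (an alternative chosen after seeing the data). The count of tiles in both single comparisons rose from 0 to 1 with the span extended by 10 kb, and to 1 with neighbouring tiles allowed. With any tile that holds an MspI site as reachable, the listed shares fell to 2.84% in the knockdown comparison and 2.33% in the knockout comparison, since more tiles entered the denominator. The genome share under that definition is not given here, so these values cannot be set beside the genome shares above. The other germline genes near a start fell from 23 to 11 (span start) and 13 (canonical start) in the knockout comparison, and from 16 to 10 and 9 in the mix, since fewer starts were counted. Shares of all protein-coding genes under the changed starts and widths are not given here either. A stricter threshold was not tried, since it needs the authors' differences. With no read numbers and 1 library per clone, depth and replicate error are unknown.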
